A study of Saccharomyces cerevisiae with 21 samples.

Results

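Ty3 is a long terminal repeat (LTR) retrotransposon of budding yeast, a genetic element that copies itself through an RNA that is reverse transcribed and put back into the genome. Its genes were described in 21 RNA sequencing libraries of Saccharomyces cerevisiae. The members were the table rows with the identifiers YGR109W-A, YGR109W-B, YIL082W, YIL082W-A and YIL080W, 5 identifiers set against 7123 features in all. Of the 5, 4 had a row and 2 had reads in any library. A row for YIL080W was not analysed here. The members were selected on their RPM levels in all 21 libraries, so these levels are given as a description, with no test.

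Ty3 RNA starts in the 5′ LTR and runs through the whole element. It encodes a Gag protein, which forms the particle, and a longer Gag-Pol protein that carries the protease, reverse transcriptase, RNase H and integrase and is made by ribosomal frameshifting. New copies are inserted next to the start sites of genes read by RNA polymerase III, mostly tRNA genes. In haploid cells Ty3 transcription is known to be raised by mating pheromone through the transcription factor Ste12, and it is repressed in diploid a/α cells.

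The strains were BY4741, a haploid MATa laboratory strain with deletions at HIS3, LEU2, MET15 and URA3, and mutants. Series 1 held ΔP (BY4741ΔP in the labels, n = 3), Tpho84-Tcyc1 (n = 3) and BY4741 (numbers 1 to 3). Series 2 held ΔU (BY4741ΔU, n = 3), ume6Δ (n = 3), pho4Δ (n = 2), pho84Δ (n = 2) and BY4741 (numbers 4 and 5). The placing of BY4741 numbers 1 to 3 in series 1 rests on those numbers and the design text. What is altered in ΔP, in ΔU and in Tpho84-Tcyc1 is not given in the labels, which name neither the deletion cassettes nor the number of clones of any mutant. UME6 encodes a DNA-binding repressor of meiotic and metabolic genes, PHO4 the activator of phosphate-starvation genes, and PHO84 the high-affinity phosphate transporter. All cultures grew at 30 °C to an A620 of 0.5 in minimal medium with 7.2 mM phosphate and 50 mM KCl. The design text calls the cultures independent, but those of a strain were started from 1 overnight culture, so p-values below measure the spread between such cultures.

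Levels are in RPM, reads per megaread counted in a library. Libraries held 10.98 to 49.8 megareads, with a median of 17.9 megareads, as recovered from the RPM values. UME6 had 0 to 0.343 RPM in the ume6Δ libraries, against 53.5 and 69.3 RPM in BY4741 of series 2. PHO4 had 0.0757 and 0.115 RPM in pho4Δ, against 74.98 and 81.5 RPM in BY4741 of series 2. PHO84 had 0.0771 and 0.143 RPM in pho84Δ, against 130.3 and 135.9 RPM in BY4741 of series 2. All 6 markers of MATa cells were present in every library, the pheromone receptor gene STE2 at 519 to 706 RPM. Among the 4 markers of MATα cells, MF(ALPHA)1 had 0.0646 to 1.24 RPM, MF(ALPHA)2 0 to 0.206 RPM and STE3 0.373 to 5.66 RPM, while SAG1 had 21.8 to 43.2 RPM.

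In the R64 reference genome Ty3 has 2 full copies, both on the forward strand. The copy on chromosome VII is chrVII:707195-712545, 5351 bases long, and holds YGR109W-A (the gag frame, chrVII:707610-708482) and YGR109W-B (gag and pol, chrVII:707610-712254). The copy on chromosome IX is chrIX:205220-210647, 5428 bases long, and holds YIL082W-A (gag and pol, chrIX:205635-210132). YIL082W was not found in the R64 annotation used here. The genome build and annotation behind the deposited table are not given in the sources used here, so these places are those of R64.

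The stretches below show what the copies share and where they differ. The 4 LTRs of the full copies, 340 bases each, were identical. Their first 200 bases, which lie at the start of the element, are shown with the letters TGAAACA, the pheromone response element bound by Ste12, in capitals. Shortly after the LTR comes the primer binding site. Of this site 8 bases, in capitals, pair with the 3′ end of the initiator methionine tRNA that primes reverse transcription.
Start of the LTR, chrVII:707195-707394, forward strand: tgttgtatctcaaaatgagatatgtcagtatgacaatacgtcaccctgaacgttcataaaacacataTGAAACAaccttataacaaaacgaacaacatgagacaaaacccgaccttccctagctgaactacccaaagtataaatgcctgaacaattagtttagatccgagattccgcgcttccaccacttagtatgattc
Primer binding region, chrVII:707535-707554, forward strand: ccTGGTAGCGttaaaggtta

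TGAAACA occurred once in the LTR, at bases 68 to 74, counting both strands. It was found in 306 of 6020 windows of 200 bases directly upstream of protein-coding genes, or 5.08%. GGCGGC, the core of the URS1 site bound by Ume6, was not found in the LTR and stood in 3.12% of the upstream windows. CACGTG, the site bound by Pho4, was not found in the LTR either and stood in 1.84% of the windows, and CACGTT, its weaker form, was not found in the LTR and stood in 6.06%. Inside the elements GGCGGC occurred once, in pol of the chromosome IX copy (chrIX:208324-208329, reverse strand), at the substitution A3028C (position from the first base of the chromosome VII copy, whose base comes first). CACGTT occurred once in each copy, outside the LTRs (chrVII:710478-710483 and chrIX:208581-208586, forward strand). Outside the LTRs TGAAACA occurred only in the chromosome IX copy (chrIX:209568-209574, reverse strand). A match of letters is a description and does not show binding.

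Between the copies, 5350 bases could be aligned and 38 of them differed, an identity of 99.3%. Of the 38 substitutions 8 lay in gag and 30 in pol outside gag. In this alignment a segment of 78 bases stood only in the chromosome IX copy (chrIX:207020-207097). It is shown in capitals with 15 bases on each side. Its first 15 bases stand again directly after it and are also in the chromosome VII copy, so its ends depend on the alignment. In turn, 1 base was present only in the chromosome VII copy (chrVII:711934, in pol). YGR109W-B is annotated with 4645 bases and YIL082W-A with 4498. The 100 bases with the most substitutions lay in pol and held 5 of them, shown in capitals in both copies. Counted in the same way, they are A3803G, T3807C, A3827G, A3872T and A3893G.
Segment only in the chromosome IX copy, chrIX:207005-207112, forward strand: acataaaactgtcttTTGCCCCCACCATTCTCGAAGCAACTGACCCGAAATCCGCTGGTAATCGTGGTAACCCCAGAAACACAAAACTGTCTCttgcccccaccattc
Chromosome VII copy, chrVII:710997-711096, forward strand: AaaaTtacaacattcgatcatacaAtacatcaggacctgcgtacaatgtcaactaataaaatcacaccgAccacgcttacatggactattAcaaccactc
Chromosome IX copy, chrIX:209100-209199, forward strand: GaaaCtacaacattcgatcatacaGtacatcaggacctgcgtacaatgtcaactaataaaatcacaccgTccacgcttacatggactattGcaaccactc

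These differences decide how many reads can be placed in 1 copy. Of all windows of 50 bases in the pol part of YGR109W-B, 65.9% were identical to a stretch of the chromosome IX copy, and of windows of 150 bases 32.96%. For YIL082W-A the shares identical to the chromosome VII copy were 63.6% and 29.1%. How the submitters' counting treated reads that match both copies, and the read length and strand setting, are not given in the sources used here. Values for each copy are therefore uncertain, and reads of sense and antisense RNA cannot be told apart.

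Both copies sit beside a tRNA gene. The chromosome VII copy starts 15 bases from the 5′ end of a cysteine tRNA gene (YNCG0030C), and the chromosome IX copy ends 17 bases from the 5′ end of an isoleucine tRNA gene (YNCI0005W). The same 5 bases stand on either side of each copy, GAAAG for the one on chromosome VII and GAACA for the one on chromosome IX. R64 annotates 42 Ty3 LTRs, 38 of them outside the full copies. The table has no row for LTRs, so they were not analysed here.

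YGR109W-A and YIL082W, the separate gag rows, had 0 reads in all 21 libraries. For each library this allows a level of up to 3 reads, or 0.0602 to 0.273 RPM. YGR109W-A lies wholly inside YGR109W-B in R64, and how reads in such an overlap were counted is not stated. The 0 is therefore the value of the row and does not show that gag sequence was absent from the RNA.

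YGR109W-B, the gag-pol gene of the chromosome VII copy, was high in 3 of the 8 groups. It had 39.8, 38.4 and 43.2 RPM in ume6Δ (464, 726 and 1213 reads). In pho4Δ it had 30.1 and 31.4 RPM (397 and 544 reads). In pho84Δ it had 30.6 and 34.2 RPM (426 and 886 reads). These 7 libraries stood above all of the other 14. The ume6Δ libraries lay above those of pho4Δ and pho84Δ, which overlapped each other. In RNA from a whole culture, fewer cells with the transcript and less of it per cell cannot be told apart. The DNA of the strains was not examined, so whether each holds the chromosome VII copy was not tested. The few reads in the other libraries may also depend on how reads that match both copies were placed.

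In ΔU the gene had 0.574, 0.168 and 0.159 RPM (11, 3 and 2 reads). BY4741 of series 2, the strain these 4 groups are set against, had 2.59 RPM in number 4 (40 reads) and 0.249 RPM in number 5 (4 reads). The exact Poisson 95% intervals of these BY4741 libraries, 1.85 to 3.52 RPM and 0.0678 to 0.637 RPM, did not overlap. Number 4 thus stood above the other 13 libraries outside ume6Δ, pho4Δ and pho84Δ, which had 0.0605 to 0.574 RPM. Such intervals cover counting error only.

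In series 1 the gene stayed near the limit of counting in every culture. ΔP had 0.182, 0.103 and 0.261 RPM (2, 2 and 4 reads) and Tpho84-Tcyc1 had 0.0605, 0.158 and 0.219 RPM (3, 3 and 5 reads). BY4741 of series 1 had 0.119, 0.316 and 0.221 RPM (4, 5 and 11 reads). The 3 groups overlapped, and a difference between them was not detectable at this depth.

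Against BY4741 of series 2, the mean log2(RPM + 1) of YGR109W-B differed by 4.29 in ume6Δ (SE 0.30), by 3.91 in pho4Δ (SE 0.33) and by 3.98 in pho84Δ (SE 0.33). As a ratio of mean RPM, the level was 28.6 times that of BY4741 in ume6Δ, 21.7 times in pho4Δ and 22.8 times in pho84Δ. As a ratio of geometric means without the added 1, it was 50.4 times in ume6Δ, 38.3 in pho4Δ and 40.3 in pho84Δ. The 3 comparisons share the 2 BY4741 libraries, which differed more from each other on the log2 scale than the 7 mutant libraries did. The SEs come from the limma fit, which shares the spread over all groups of series 2. They are thus not the spread of these 2 libraries. With number 4 left out the log2 differences were 5.05 in ume6Δ, 4.67 in pho4Δ and 4.74 in pho84Δ. With number 5 left out they were 3.53 in ume6Δ, 3.15 in pho4Δ and 3.22 in pho84Δ. For ΔU the difference was -0.72 (SE 0.30) with overlapping groups, and it was 0.04 without number 4.

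Among the 5840 genes tested in series 2 this was the largest rise of pho4Δ, where the next, YBR141W-A, had a log2 difference of 1.11 (SE 0.28). The Ty1 genes YPR137C-B and YML039W came after it at 1.02 (SE 0.23) and 0.99 (SE 0.48), and none of these 3 was called. In pho84Δ it ranked 3 behind PHO5 at 4.28 (SE 0.19), which encodes the secreted acid phosphatase, and PHO89 at 4.09 (SE 0.32), which encodes a sodium-phosphate cotransporter. In ume6Δ it ranked 25, and INO1, a gene of inositol synthesis repressed by Ume6, ranked 1 at 7.19 (SE 0.36). Of all genes tested, 0.223% were called in pho4Δ (0.0514% higher and 0.171% lower), 0.291% in pho84Δ (0.274% higher and 0.0171% lower) and 34.4% in ume6Δ (limma, adjusted p under 0.05). These ranks use the values by which the gene was chosen and serve only to place it. Both Ty3 genes with reads were in this fit and are included in these shares. YGR109W-B passed the filter by its levels in ume6Δ, pho4Δ and pho84Δ, so no call of it is read here.

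**Figure D1:**
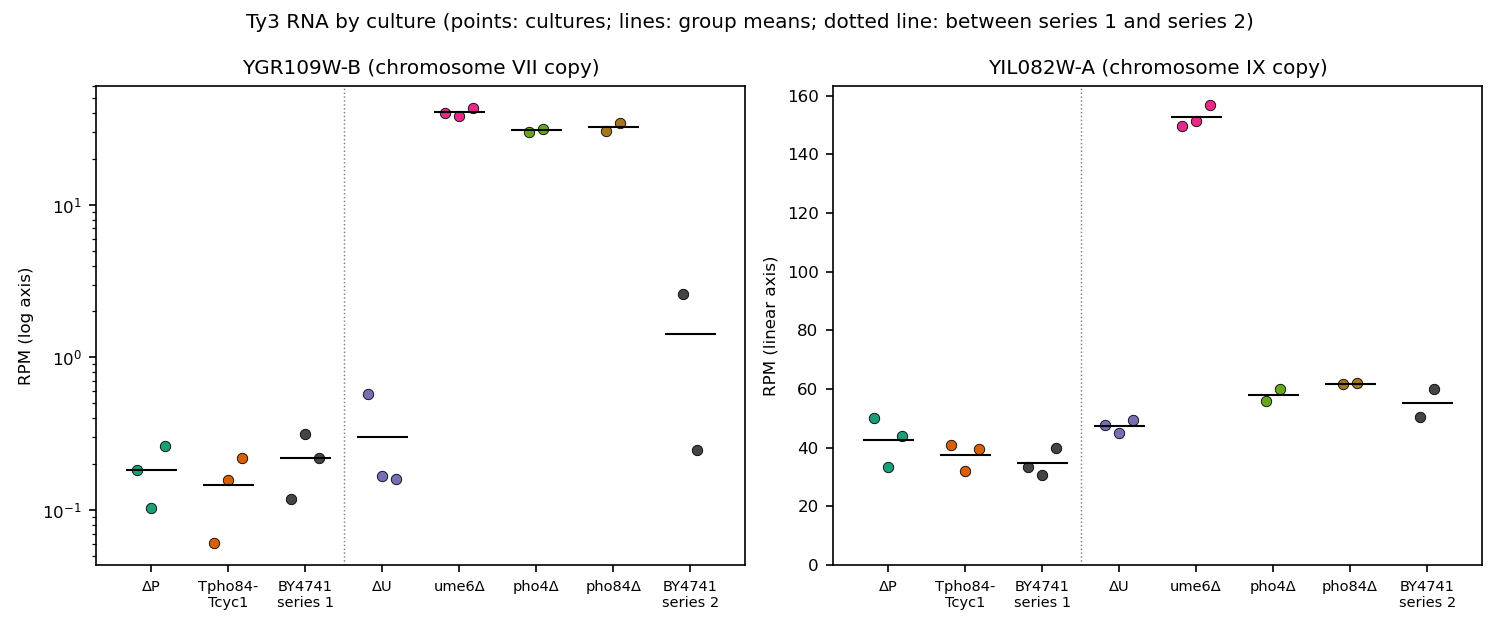
RPM of YGR109W-B (left, log axis) and YIL082W-A (right, linear axis from 0) in each of the 21 cultures, with group means as lines and a dotted line between series 1 and series 2. YGR109W-B lies at 30.1 to 43.2 RPM in ume6Δ, pho4Δ and pho84Δ and at 0.0605 to 2.59 RPM elsewhere, and YIL082W-A lies at 149.7 to 156.9 RPM in ume6Δ and at 30.6 to 61.9 RPM elsewhere.

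YIL082W-A, the gag-pol gene of the chromosome IX copy, was read in every culture and was highest in ume6Δ. It had 149.7, 151.2 and 156.9 RPM in ume6Δ. It had 55.7 and 60.1 RPM in pho4Δ, 61.7 and 61.9 RPM in pho84Δ, and 47.9, 44.9 and 49.3 RPM in ΔU, against 50.5 and 60.1 RPM in BY4741 of series 2. The ume6Δ libraries stood apart from all others, those of pho84Δ lay just above and those of ΔU just below BY4741, and those of pho4Δ overlapped it.

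The log2 difference of YIL082W-A was 1.45 in ume6Δ (SE 0.08), a mean level 2.76 times that of BY4741 of series 2. It was 0.07 in pho4Δ (SE 0.09), 0.16 in pho84Δ (SE 0.09) and -0.21 in ΔU (SE 0.08). The median over all genes was 0.15 in ΔU, and after rescaling by TMM, which brought that median to 0.02, the summed Ty3 difference of ΔU was -0.38 in place of -0.24. In pho4Δ and pho84Δ most of the difference in summed Ty3 RPM, as counted, thus lay in YGR109W-B.

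In series 1 YIL082W-A had 50.2, 33.4 and 43.9 RPM in ΔP, and Tpho84-Tcyc1 had 40.8, 32.1 and 39.5 RPM, against 33.4, 30.6 and 40.0 RPM in BY4741. All 3 groups overlapped. The log2 differences were 0.27 in ΔP and 0.11 in Tpho84-Tcyc1 (SE 0.15 each). BY4741 itself was higher in series 2 than in series 1 with no overlap, and the choice of BY4741 group turned the sign of 3 summed Ty3 differences. With BY4741 of the other series as the control, they were -0.42 in ΔP, -0.58 in Tpho84-Tcyc1 and 0.45 in ΔU, in place of 0.27, 0.11 and -0.24.

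By group mean, YIL082W-A followed the order ume6Δ, pho84Δ, pho4Δ, BY4741 of series 2, ΔU, ΔP, Tpho84-Tcyc1 and BY4741 of series 1. Neighbours in that order overlapped except ume6Δ with pho84Δ, pho84Δ with pho4Δ, and BY4741 of series 2 with ΔU. YGR109W-B followed the order ume6Δ, pho84Δ, pho4Δ, BY4741 of series 2, ΔU, BY4741 of series 1, ΔP and Tpho84-Tcyc1. There the neighbours ume6Δ and pho84Δ, and pho4Δ and BY4741 of series 2, did not overlap, and the others did. Set per kilobase of gene, YGR109W-B had 8.71 and YIL082W-A 33.9 RPM per kb in ume6Δ, 6.62 and 12.9 in pho4Δ, 6.97 and 13.8 in pho84Δ, and 0.305 and 12.3 in BY4741 of series 2. The chromosome IX gene was the higher of the pair in every group.

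The share of Ty3 reads counted for YGR109W-B put the mutants in another order. It was 35.0% and 34.3% in pho4Δ, 33.1% and 35.5% in pho84Δ, and 21.005%, 20.2% and 21.6% in ume6Δ, against 4.87% and 0.412% in BY4741 of series 2. The other 12 libraries had 0.148% to 1.19%. The exact 95% intervals of ume6Δ, from 18.9% to 22.8% over its libraries, lay below those of pho4Δ and pho84Δ, from 30.5% to 37.9%. These intervals cover counting error only, leave out the spread between cultures and are not a test between strains. Both Ty3 genes were thus higher in ume6Δ than in BY4741, while in pho4Δ and pho84Δ the log2 difference of YIL082W-A was at most 0.16. The share was not adjusted for the chromosome of each copy. Other tested genes of chromosome IX, which holds YIL082W-A, had a median log2 difference of 1.04 in ume6Δ, 0.03 in pho4Δ and 0.04 in pho84Δ. How much of the lower share in ume6Δ came with its chromosome IX was not tested.

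**Figure D2:**
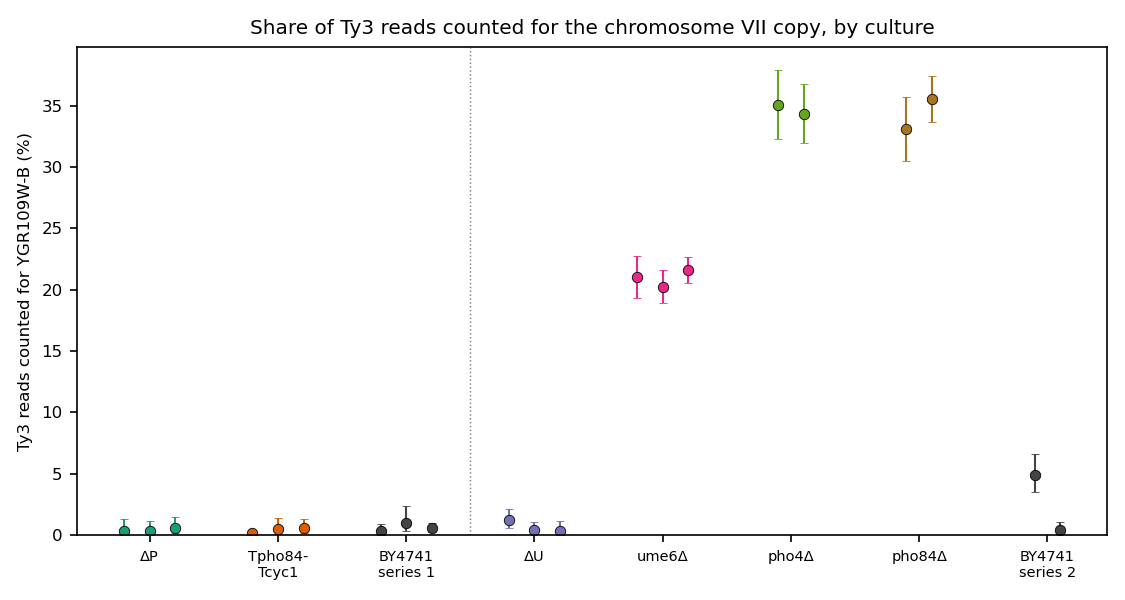
Percent of the reads of both Ty3 genes that were counted for YGR109W-B in each culture, with exact binomial 95% intervals and a dotted line between series 1 and series 2. The shares are 33.1% to 35.5% in pho4Δ and pho84Δ, 20.2% to 21.6% in ume6Δ, 4.87% in BY4741 number 4 and at most 1.19% in the other 13 libraries. They are not adjusted for the higher reads of chromosome IX genes in ume6Δ, and the intervals cover counting error only.

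The rise of YIL082W-A in ume6Δ came with a rise of its whole chromosome. Of 204 other genes tested on chromosome IX, all had a log2 difference above 0 in ume6Δ against BY4741 of series 2, and 200 were called higher, beside 23.1% of all genes tested. The median on chromosome IX was 1.04, while the medians of the other 15 nuclear chromosomes ran from 0.0024 to 0.083. Genes of chromosome IX took 4.81% to 4.82% of the reads in ume6Δ, against 2.38% to 2.54% in the other 18 libraries. This look at chromosomes was chosen after the values were seen.

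YIL082W-A ranked 24 of 205 genes of chromosome IX by its difference in ume6Δ, and lay 0.41 log2 units above the median of the others. Per 1000 reads of chromosome IX genes, it had 3.17 ± 0.08 reads in ume6Δ (SD, n = 3), 2.37 ± 0.16 in pho4Δ (n = 2), 2.57 ± 0.02 in pho84Δ (n = 2) and 1.97 ± 0.12 in ΔU (n = 3), against 2.30 ± 0.27 in BY4741 of series 2 (n = 2). The lowest ume6Δ library, at 3.11, stood above the highest of all others, at 2.58. The part of the chromosome in the rise of YIL082W-A was not tested. YGR109W-B lies on chromosome VII, whose median in ume6Δ was 0.0024, the lowest of the nuclear chromosomes.

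**Figure D3:**
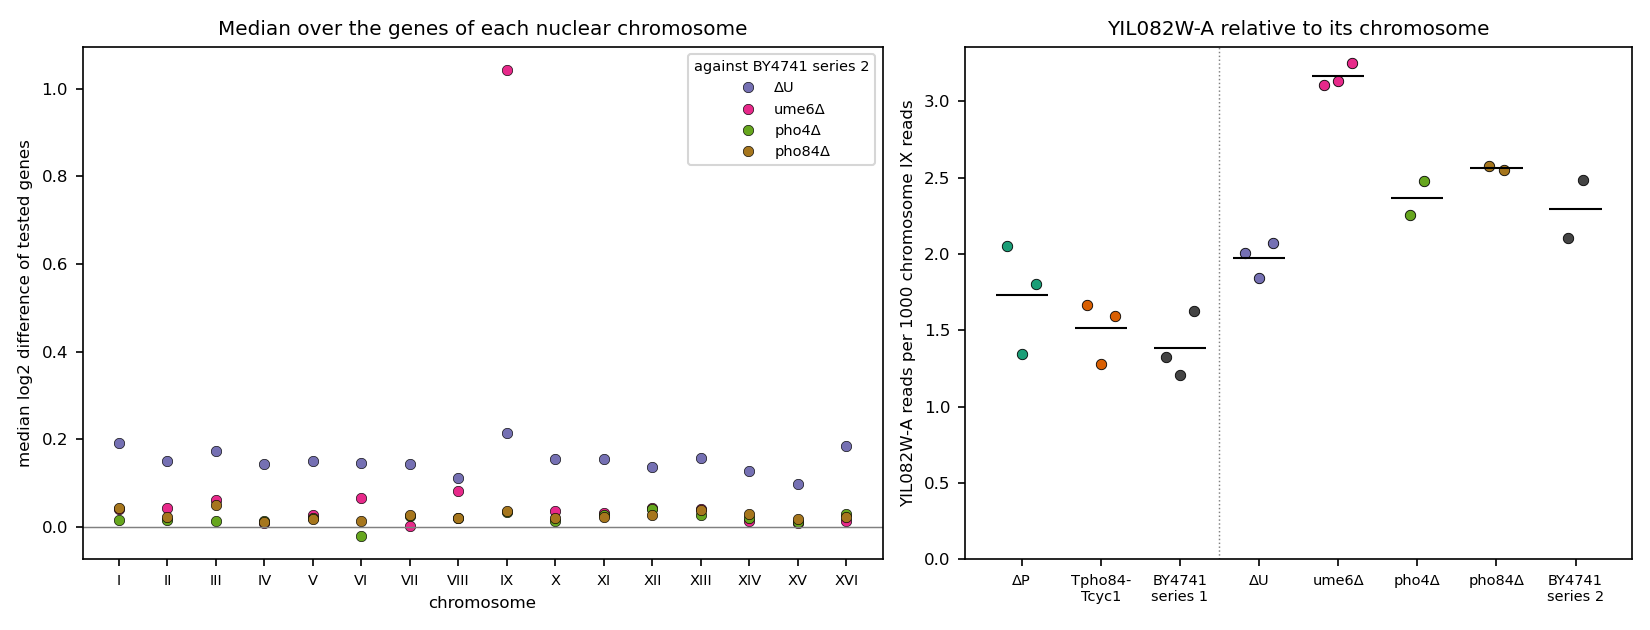
Left, median log2 difference from BY4741 of series 2 over the tested genes of each nuclear chromosome in ΔU, ume6Δ, pho4Δ and pho84Δ. Right, YIL082W-A reads per 1000 reads of chromosome IX genes in each culture, with group means as lines: chromosome IX stands at 1.04 in ume6Δ, and YIL082W-A stays highest there at 3.11 to 3.25.

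The genes beside the chromosome VII copy were looked at next. Of the 3 nearest tested genes on each side, none was called in pho4Δ or pho84Δ, beside 0.223% and 0.291% of all genes. The log2 differences of these neighbours ran from -0.09 to 0.17 there, and none had an unadjusted limma p under 0.05. In ume6Δ 1 of 6 was called, beside 34.4% of all genes. It was CLD1, which encodes a cardiolipin phospholipase, with 21.1 ± 1.8 RPM, against 7.56 ± 1.09 RPM in BY4741 of series 2 (log2 difference 1.37, SE 0.15, limma adjusted p = 3.98e-06). CLD1 was also called in ΔU, where YGR109W-B had at most 0.574 RPM (24.6 ± 3.4 RPM, log2 difference 1.58, SE 0.15, limma adjusted p = 2.61e-06). The call held in all 12 alternatives in each of these mutants. The remaining genes there, VOA1, the cyclin genes CLB1 and CLB6, YGR111W and SHY1, had log2 differences of -0.13 to 0.23 in ume6Δ.

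In ΔU 2 of these 6 genes were called, beside 49.7% of all genes tested (36.5% higher and 13.2% lower), CLD1 and SHY1, a cytochrome oxidase assembly gene (log2 difference 0.54, SE 0.11, limma adjusted p = 0.00123). In series 1, VOA1 fell in ΔP (-0.45, limma adjusted p = 0.0386) and in Tpho84-Tcyc1 (-0.45, adjusted p = 0.0407). CLB6 (0.44, limma adjusted p = 0.0439) and YGR111W (0.34, adjusted p = 0.0153) rose in Tpho84-Tcyc1. Of all genes tested, 9.47% were called in ΔP (5.8% higher and 3.67% lower) and 7.97% in Tpho84-Tcyc1 (4.42% higher and 3.55% lower). VOA1 lost its call in 7 of 14 alternatives in each mutant, CLB6 in 11 of 14 and YGR111W in 4 of 14.

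All 6 nearest genes of the chromosome IX copy rose in ume6Δ, from 0.64 for CAB2, a coenzyme A synthesis gene, to 1.05 for SDS3, which encodes a subunit of the Rpd3 histone deacetylase complex. KTR7 rose by 0.90, AIR1 by 0.94, THS1 by 0.89 and RCI37 by 0.97, with SEs of 0.06 to 0.10 and limma adjusted p from 3.4e-08 to 4.55e-06. Their median of 0.92 stood below the chromosome's 1.04, and YIL082W-A at 1.45 stood above all 6. In ΔU, where 36.5% of all genes were called higher and 13.2% lower, CAB2 rose by 0.47 and RCI37 by 0.43. THS1, the threonyl-tRNA synthetase gene, fell by 0.40 there (limma adjusted p of these genes from 6.67e-05 to 0.00113). Set against BY4741 of series 1, THS1 lost that call (limma adjusted p = 0.885). In ΔP, where 5.8% of all genes were called higher, RCI37 rose by 0.29 (limma adjusted p = 0.0479), a call lost in 11 of 14 alternatives. None of the 6 was called in Tpho84-Tcyc1, pho4Δ or pho84Δ, beside 7.97%, 0.223% and 0.291% of all genes. In each of these mutants 1 of the 6 had an unadjusted limma p under 0.05.

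**Figure D4:**
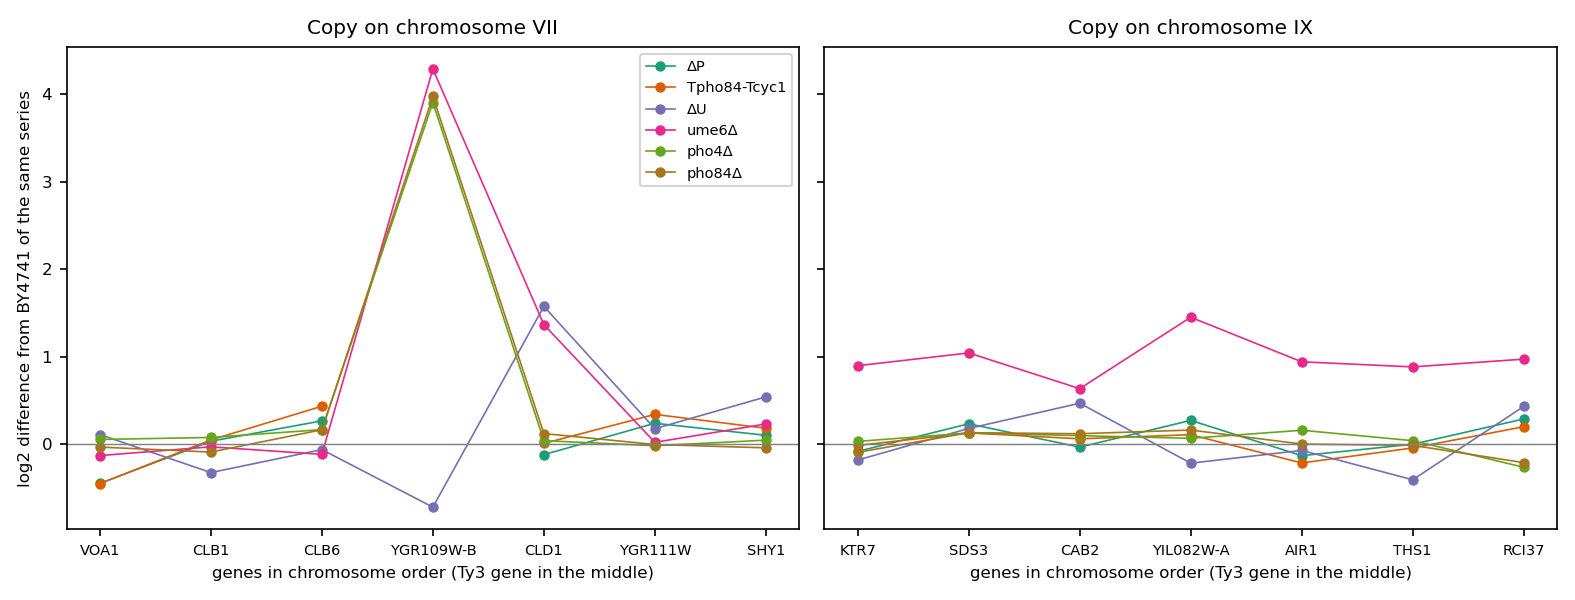
Log2 difference from BY4741 of the same series for the Ty3 gene and the 3 nearest tested genes on each side, in chromosome order, for the copy on chromosome VII (left) and on chromosome IX (right). YGR109W-B, which did not pass the filter in series 1, stands at 3.91 to 4.29 in 3 mutants. Its neighbours stand at -0.13 to 0.23 there, other than CLD1 at 1.37 in ume6Δ. On chromosome IX the 6 neighbours stand at 0.64 to 1.05 in ume6Δ, beside 1.45 for YIL082W-A.

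Ty3 transcription depends on the pheromone pathway, so its 19 genes, from the receptor STE2 to the factor STE12, were set beside the members. None was called by limma in pho4Δ, pho84Δ or ΔP, beside 0.223%, 0.291% and 9.47% of all genes. Of the 19, 2, 3 and 3 genes had an unadjusted p under 0.05 there. By edgeR none was called there either, and by DESeq2 2 were called in ΔP. Set against BY4741 of series 1, 6 rose and 1 fell in pho4Δ and in pho84Δ alike. Of all 5927 genes tested with that control, 1128 rose and 1016 fell in pho4Δ, and 1260 rose and 1085 fell in pho84Δ. Against BY4741 of series 2 the median log2 difference of the 19 genes was 0.11 in both pho4Δ and pho84Δ, beside 0.02 over all genes. In ume6Δ 1 of 19 rose and 4 fell, beside 23.1% of all genes called higher and 11.3% called lower. Without BY4741 number 4, 3 rose and 1 fell there, and KSS1, FAR1 and STE4 lost their calls. BAR1, the pheromone protease gene, had 296 ± 15 RPM, against 157 ± 17 RPM in BY4741 of series 2 (log2 difference 0.91, SE 0.07, limma adjusted p = 2.36e-07), and it lies on chromosome IX. TEC1, which encodes the partner of Ste12 in filamentous growth, fell by 0.81 (SE 0.09, limma adjusted p = 4.77e-06), and the kinase gene KSS1 fell by 0.30 (adjusted p = 0.0298), a call lost in 3 of 12 alternatives. In ΔU 5 of 19 rose and 6 fell, beside 49.7% of all genes called there. Among those that fell were TEC1, by 0.51, and KSS1, by 0.39 (limma adjusted p = 0.00035 and 0.00419). After rescaling by TMM 1 of the 19 rose and 9 fell in ΔU, beside 1358 higher and 1396 lower of all 5840 genes. In Tpho84-Tcyc1 2 of 19 rose, beside 4.42% of all genes called higher. They were TEC1, by 0.42, and the regulator gene SST2, by 0.35 (limma adjusted p = 0.0284 and 0.0407). These calls were lost in 6 and 8 of 14 alternatives, among them each fit that left out 1 library. SST2 was at -0.38 when set against BY4741 of series 2.

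Of the genes known to be induced by pheromone, 18 were listed and 17 were tested in series 2. None was called by limma, edgeR or DESeq2 in pho4Δ or pho84Δ, where limma called 0.223% and 0.291% of all genes. The medians of the 17 were 0.11 and 0.06 there, and 2 genes each had an unadjusted limma p under 0.05. With BY4741 of series 1 as the control 3 rose and 5 fell in pho4Δ, and 3 rose and 4 fell in pho84Δ. Of all 5927 genes, 1128 rose and 1016 fell in pho4Δ with that control, and 1260 rose and 1085 fell in pho84Δ. In ume6Δ 7 of 17 rose and none fell, beside 23.1% of all genes called higher. Without BY4741 number 4 or number 5, or without ume6Δ number 3, 5 rose, and 4 rose without ume6Δ number 2. PRM5 had 165 ± 4 RPM, against 40.2 ± 6.6 RPM in BY4741 of series 2 (log2 difference 2.02, SE 0.10, limma adjusted p = 2.27e-09), and PRM2 had 7.08 ± 1.43 RPM, against 2.57 ± 0.56 RPM (1.17, SE 0.21, adjusted p = 0.000541). Both lie on chromosome IX, while the remaining genes called higher there lie on other chromosomes. Among these was PRM3 on chromosome XVI, with 1.14 ± 0.24 RPM in ume6Δ, against 0.0323 ± 0.0457 RPM in BY4741 of series 2. Its log2 difference was 1.04 (SE 0.22, limma adjusted p = 0.00188). In ΔU, where YGR109W-B was low, 8 of 17 rose and 3 fell, beside 36.5% of all genes called higher and 13.2% called lower, PRM4 at 1.27 and PRM5 at 1.02 with the largest log2 differences (limma adjusted p = 0.000707 and 5.4e-06). In ΔP, where 3.67% of all genes were called lower, MFA1, an a-factor gene, fell by 0.83 (limma adjusted p = 0.0417). This call was lost in 7 of 14 alternatives, and the difference was 0.68 when set against BY4741 of series 2. In Tpho84-Tcyc1 none of 16 was called by limma, beside 7.97% of all genes, 1 had an unadjusted p under 0.05 and DESeq2 called 1. Set against BY4741 of series 2, 7 rose and 2 fell there, beside 1239 higher and 780 lower of all 5927 genes.

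The 9 initiation factors of RNA polymerase III, which mark the places where Ty3 inserts, were also counted. In ume6Δ 3 of 9 were called, beside 34.4% of all genes: TFC8 fell by 0.32 and SPT15 by 0.16, and TFC4 rose by 0.20 (limma adjusted p = 0.00483, 0.0264 and 0.0425). In ΔU 2 of 9 were called, beside 49.7% of all genes: TFC3 rose by 0.27 and SPT15 fell by 0.14 (limma adjusted p = 0.0088 and 0.0327). These calls were lost in 2, 6, 8, 3 and 5 of 12 alternatives in that order. With BY4741 of series 1 as the control 5 rose and none fell in ume6Δ, beside 2060 higher and 1402 lower of all 5927 genes. After rescaling by TMM none rose and 2 fell in ΔU, beside 1358 higher and 1396 lower of all 5840 genes. None of the 9 was called by limma in ΔP, Tpho84-Tcyc1, pho4Δ or pho84Δ, beside 9.47%, 7.97%, 0.223% and 0.291% of all genes. In each of these mutants 1 of the 9 had an unadjusted p under 0.05, and DESeq2 called 1 in ΔP.

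Ty3 RNA and Gag gather with mRNA-processing (P-body) proteins, whose 16 genes were looked at in the same way. In ume6Δ 3 of 16 rose, beside 23.1% of all genes called higher, LSM3 by 0.55, LSM7 by 0.46 and LSM4 by 0.31 (limma adjusted p = 0.00956, 0.00334 and 0.0101). Each lost its call without BY4741 number 5, and LSM7 was -0.46 with BY4741 of series 1 as the control. In ΔU, beside 36.5% of all genes called higher, LSM6 and LSM2 rose by 0.37 and 0.31 (limma adjusted p = 0.0492 and 0.0367). Each call was lost in 9 of 12 alternatives. After rescaling by TMM none rose and 7 of the 16 fell in ΔU, beside 1358 higher and 1396 lower of all 5840 genes. In ΔP 2 of 16 rose, beside 5.8% of all genes called higher. The helicase gene DHH1 had 78.7 ± 24.1 RPM in ΔP, against 41.9 ± 7.5 RPM in BY4741 of series 1 (0.86, limma adjusted p = 0.0287). CCR4, a deadenylase gene, had 90.3 ± 27.5 RPM, against 53.1 ± 2.2 RPM (0.71, limma adjusted p = 0.0324). Each call was lost in 8 of 14 alternatives, with DHH1 at -0.28 when set against BY4741 of series 2. None of the 16 was called by limma, edgeR or DESeq2 in Tpho84-Tcyc1, pho4Δ or pho84Δ, where limma called 7.97%, 0.223% and 0.291% of all genes. Of the 16, 0, 1 and 1 had an unadjusted limma p under 0.05 there. Set against BY4741 of series 1, 4 rose and 3 fell in pho4Δ, and 5 rose and 5 fell in pho84Δ. Of all 5927 genes, 1128 rose and 1016 fell in pho4Δ with that control, and 1260 rose and 1085 fell in pho84Δ. With only Tpho84-Tcyc1 and BY4741 of series 1 in the limma fit, 3 rose in Tpho84-Tcyc1, beside 845 of all 5743 genes.

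Ty1, Ty2 and Ty4, set beside Ty3, are also LTR retrotransposons, and copies within a family are nearly identical, so the values of single copies are uncertain. Of 32 tested Ty1 genes 20 fell and none rose in ume6Δ, beside 11.3% of all genes called lower, with a median of -0.55. YDR365W-B fell by 1.13 (SE 0.12, limma adjusted p = 4.26e-06), with 12.4 ± 0.5 RPM, against 28.4 ± 1.4 RPM in BY4741 of series 2. YPR158C-D fell by 1.12 and YLR157C-B by 1.04 (limma adjusted p = 1.08e-05 and 2.07e-05). With BY4741 of series 1 as the control, 11 Ty1 genes rose and 3 fell in ume6Δ, and the Ty1 median was 0.22. Of all 5927 genes 2060 rose and 1402 fell with that control. In ume6Δ 4 of 10 tested Ty2 genes rose, beside 23.1% of all genes called higher, YBL100W-B by 1.07 (SE 0.10, limma adjusted p = 7.5e-07). YDR261W-B, another of the 4, lost its call in 9 of 12 alternatives. Also higher in ume6Δ was 1 of 4 Ty4 genes, YHL009W-B, by 0.57 (limma adjusted p = 0.0151), a call lost without BY4741 number 5.

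In ΔU 21 of 32 Ty1 genes rose and none fell, beside 36.5% of all genes called higher, with a median of 0.54. YNL284C-B had 426 ± 54 RPM, against 145 ± 4 RPM in BY4741 of series 2 (log2 difference 1.54, SE 0.10, limma adjusted p = 6.88e-08). Of the Ty3 genes there, YIL082W-A lay below BY4741 and YGR109W-B overlapped it. Over all 5840 genes, rescaling by TMM gave 1358 called higher and 1396 called lower in ΔU. After rescaling by TMM 17 Ty1 genes rose and 2 fell in ΔU, and 12 of 32 rose without BY4741 number 5. In ΔP 12 of 32 Ty1 genes and 6 of 10 Ty2 genes rose, beside 5.8% of all genes called higher, YOR142W-B by 0.86 and YFL002W-A by 0.87 (limma adjusted p = 0.0133 and 0.0224), calls lost in 3 and 6 of 14 alternatives. Leaving out 1 library gave 0 to 22 Ty1 genes and 0 to 10 Ty2 genes: both were at 0 without BY4741 number 2 or without ΔP number 3, and at 22 and 10 without ΔP number 2. The Ty1 and Ty2 counts were 4 and 0 without BY4741 number 1, 2 and 1 without BY4741 number 3, and 5 and 3 without ΔP number 1. With only ΔP and BY4741 of series 1 in the fit they were 1 and 0. With BY4741 of series 2 as the control the Ty1 median in ΔP was -0.36, in place of 0.45, and the Ty2 median -0.07, in place of 0.47. In Tpho84-Tcyc1 1 of 10 Ty2 genes rose, YDR261W-B (0.34, limma adjusted p = 0.046), beside 4.42% of all genes called higher. This call was lost in 10 of 14 alternatives. No gene of Ty1, Ty2 or Ty4 was called by limma, edgeR or DESeq2 in pho4Δ or pho84Δ, where limma called 0.223% and 0.291% of all genes. The Ty1 medians were 0.09 and 0.22 there, and 6 and 12 Ty1 genes had an unadjusted limma p under 0.05. With BY4741 of series 1 as the control, 26 of 32 Ty1 genes rose in pho4Δ and 28 in pho84Δ. Of all 5927 genes 1128 and 1260 rose there with that control. Set against BY4741 of series 2, 22 Ty1 genes fell in Tpho84-Tcyc1, beside 780 of all 5927 genes. Without BY4741 number 4, 3 Ty1 genes rose in pho4Δ and 4 in pho84Δ.

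**Figure D5:**
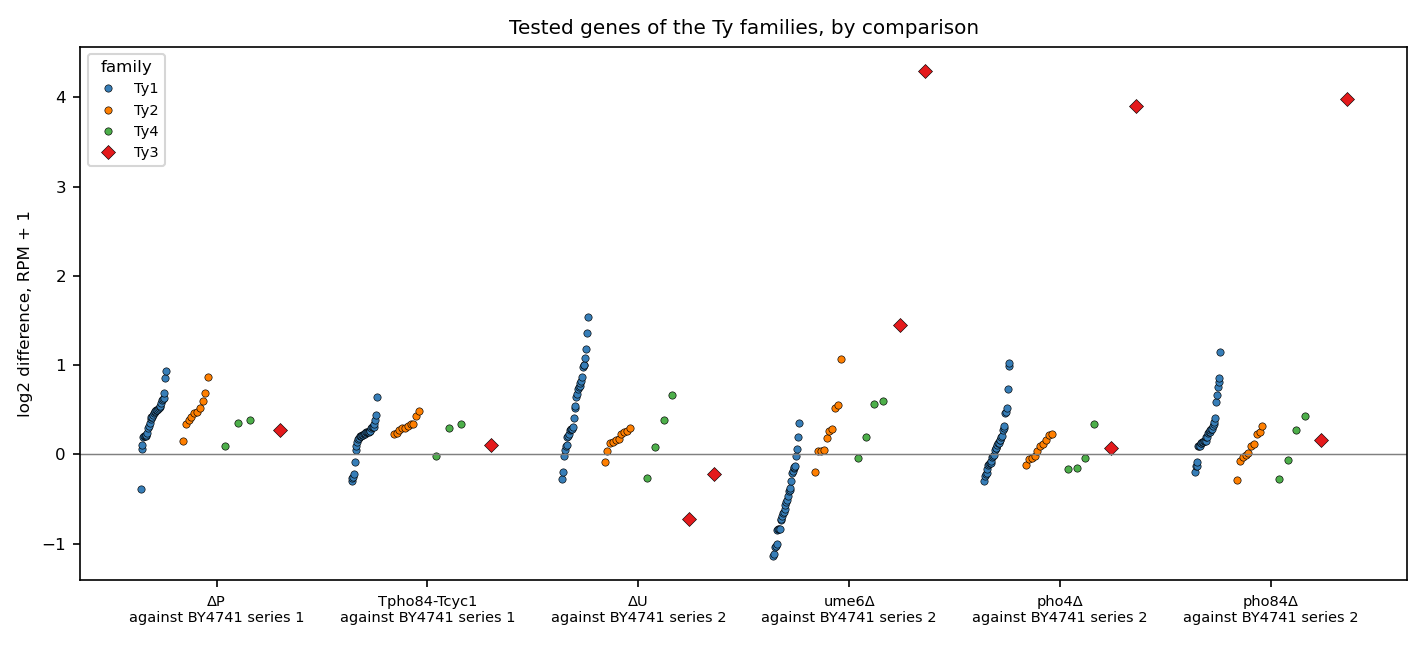
Log2 difference of each gene of Ty1, Ty2, Ty4 and Ty3 that passed the filter (points are genes, diamonds are Ty3). The 6 comparisons are with BY4741 of the same series. In pho4Δ and pho84Δ YGR109W-B stands at 3.91 and 3.98 above every other Ty gene, and in ume6Δ 20 of 32 Ty1 genes were called lower, which did not hold with BY4741 of series 1 as the control, while the Ty3 genes lie at 1.45 and 4.29.

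The genes most like summed Ty3 over the 21 libraries, by Pearson's r of log2(RPM + 1) among 5723 genes with a mean of at least 1 RPM, were MET18, STH1, KIN2, RPM2 and NUP159, each with r of 0.95. MET18, STH1 and NUP159 lie on chromosome IX. Without the 3 ume6Δ libraries r was 0.84 to 0.87 over 18 libraries. RPM2, which encodes the protein subunit of mitochondrial RNase P, had 180 RPM in ume6Δ, 114 in pho4Δ, 123 in pho84Δ and 88.3 in ΔU, against 97.2 in BY4741 of series 2. It had 77.4 RPM in ΔP and 80.4 in Tpho84-Tcyc1, against 60.8 in BY4741 of series 1. Libraries of a group and of a series share their culture and sequencing, so these values describe a shared pattern and carry no test.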

How the data were processed

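Messenger RNA was sequenced with a stranded kit, per the labels' protocols. The deposited table gives reads per megaread (RPM) for 7123 features in 21 libraries, and the submitters' processing notes name HISAT2, featureCounts and edgeR without versions or roles. The aligner settings, build, annotation, strand setting and treatment of reads matching several places are not given in the sources used here. Each library's RPM values were whole multiples of its smallest value above 0 (100% of values within 0.01 reads), which gave the read numbers and 10.98 to 49.8 megareads of depth. Intervals and floors of 3 reads cover counting error only.

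Each series was fitted with limma 3.58.1 (R 4.3.3) on log2(RPM + 1), with 1 mean per group, a trend and Benjamini-Hochberg adjustment over all genes that reached 1 RPM in 3 or more libraries of series 1, or in 2 or more of series 2. Genes were called at an adjusted p under 0.05, and the steps were tested on simulated data. The Ty3 genes and the gene lists were chosen with earlier results of these data known. The text names the members, up to 3 called genes with the largest difference per list and comparison, the 3 nearest tested genes on each side of each copy, and the 5 genes most like summed Ty3. Genes that place YGR109W-B among the largest rises were chosen after their values were seen. Alternatives were a pseudocount of 0.1, no filter, TMM rescaling, edgeR 4.0.16 and DESeq2 1.42.0 on the recovered reads, fits of 2 groups, the other series' BY4741, the replicate block and leaving out each library. Symbols and sequences come from the R64 build of RefSeq, in which 6044 identifiers were found. In 4 rows the deposited symbol belongs to another gene there, and the identifier was kept. The copies were aligned with MAFFT 7.526.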

Additional observations from a re-analysis of the deposited data

How the results depend on the processing

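The differences of summed Ty3 depended most on which copy and which BY4741 libraries were used. Of 69 alternative values, 42 stayed within the spread between cultures and 27 moved beyond it; the causes were not tested beyond what each alternative changes by construction. With the chromosome VII copy alone the log2 differences were -0.043 in ΔP, -0.088 in Tpho84-Tcyc1, -0.72 in ΔU, 4.29 in ume6Δ, 3.91 in pho4Δ and 3.98 in pho84Δ. That copy gave 0.043, 5.05, 4.67 and 4.74 in ΔU, ume6Δ, pho4Δ and pho84Δ with BY4741 number 4 left out, and -1.48, 3.53, 3.15 and 3.22 with number 5 left out, alternatives chosen after seeing the data. With the chromosome IX copy alone they were 1.45 in ume6Δ, 0.069 in pho4Δ and 0.16 in pho84Δ, and 0.41 in ume6Δ relative to the median of chromosome IX, also chosen after seeing the data. With the other series' BY4741 as the control they were -0.42 in ΔP, -0.58 in Tpho84-Tcyc1, 0.45 in ΔU, 2.44 in ume6Δ, 1.33 in pho4Δ and 1.42 in pho84Δ. TMM gave -0.38 in ΔU. Leaving out each library in turn gave 0.14 to 0.43 in ΔP, 0.03 to 0.21 in Tpho84-Tcyc1, -0.33 to -0.15 in ΔU, 1.66 to 1.84 in ume6Δ, 0.55 to 0.73 in pho4Δ and 0.63 to 0.81 in pho84Δ.

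The number of genes called was 547 in ΔP, 460 in Tpho84-Tcyc1, 2904 in ΔU, 2011 in ume6Δ, 13 in pho4Δ and 17 in pho84Δ. Without the filter it was 349 in ΔP and 8 in pho4Δ. With only the groups compared in the fit it was 144 in ΔP, 1325 in Tpho84-Tcyc1, 8 in pho4Δ and 11 in pho84Δ. With the other series' BY4741 it was 1583 in ΔP, 2019 in Tpho84-Tcyc1, 3462 in ume6Δ, 2144 in pho4Δ and 2345 in pho84Δ. DESeq2 called 910 in ΔP, 839 in Tpho84-Tcyc1, 71 in pho4Δ and 40 in pho84Δ. On the recovered reads edgeR called 530, 508, 2761, 2143, 13 and 14 in the order above. Leaving out each library gave 62 to 1867 in ΔP, 86 to 327 in Tpho84-Tcyc1, 2198 to 2943 in ΔU, 1359 to 1916 in ume6Δ, 6 to 63 in pho4Δ and 11 to 171 in pho84Δ. With the replicate block 661 genes were called in ΔP and 474 in Tpho84-Tcyc1. The numbers were not treated as pairs, since deviations of same-numbered cultures correlated at -0.23 to 0.28, and no paired fit was possible in series 2, whose mutants share no number with BY4741.

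The genes named by the rule (up to 3 per list and comparison, and the genes nearest to each copy) gave 1224 values that kept direction and call, 26 that gained a call, 182 that lost it and 18 that turned sign, all of the 18 with the other series' BY4741. In ΔP these were DHH1 -0.28, MFA1 0.68, THS1 -0.39, YDR034C-D -0.14, YFL002W-A -0.046, YGR027W-B -0.62, YHR214C-B -0.35, YOR142W-B -0.43 and YOR192C-B -0.29. In ΔU they were LSM2 -0.11, LSM6 -0.35, MFA1 -0.54 and VOA1 -0.26. They were LSM7 -0.46 in ume6Δ, SST2 -0.38 in Tpho84-Tcyc1, VOA1 -0.32 in pho4Δ, and AIR1 -0.31 and THS1 0.38 in pho84Δ. Called genes beyond these were not tallied, such as the Ty1 genes of ume6Δ, of which 11 were higher with the other series' BY4741. In series 1 YGR109W-B rests on 2 to 11 reads a library.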
